A study of Mus musculus with 5 samples.

Results

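The data described here are the 2 empty vector controls of a series on B16F10 cells, a pigmented mouse melanoma line derived from C57BL/6 mice that grows as an adherent culture. One control carried the empty vector used for forced expression and was collected at day 8, and the other carried the empty vector used for short hairpin RNA knockdown and was collected at day 7. They were chosen because they are the only libraries without a transgene or hairpin against a gene, and they are 2 of 5 libraries. A gene was compared where its level was at least 1 FPKM (fragments per kilobase of transcript, scaled to a total per library) in either control, which held for 11142 of 54699 genes in the deposited table.

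The other 3 libraries came from B16F10 cells with forced expression of Myod1 (day 8), forced expression of Pparg (day 8), or a hairpin against Setdb1 (day 7). In all 5 cultures the vector was delivered by lentivirus, the cells grew in DMEM with 10% serum, and total RNA was taken after trypsin treatment. There was 1 library per group, so a difference could not be set against the spread between replicates, and p-values are not given. The interval beside a value covers counting error only: a 95% Wilson interval for a level and an exact binomial interval for a fold. Vector and labelled day differ together between the 2 controls, and their parts in a difference cannot be told apart. The sources used here do not say from when the days are counted or whether the controls came from separately infected cultures.

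Reads assigned to genes numbered 16741147 for the expression vector control and 16214802 for the knockdown vector control, against 17383206 to 18300670 in the other 3 libraries. The total behind the deposited FPKM was 97.6% of the assigned reads in the expression vector control and 103% in the knockdown vector control, and which total the authors used is not given in the sources used here. Scaling both to the assigned reads, an alternative chosen after seeing the data, moved the median log2 ratio (knockdown vector minus expression vector control) from -0.01 to 0.06. The 3 targeted genes were read first. Myod1 and Pparg had 0 reads in both controls, which at 3 reads allows levels up to 0.0987 and 0.0622 FPKM in the expression vector control. Setdb1, a histone H3 lysine 9 methyltransferase, stood at 10.3 FPKM in the expression vector control and 9.82 FPKM in the knockdown vector control, a ratio of 0.949 (interval 0.874 to 1.03), so the difference was within counting error.

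Melanoma cells of a pigmented line keep much of the programme of the melanocyte. Mitf, a basic helix-loop-helix transcription factor, and Sox10, a neural crest factor, drive genes of the melanosome, the organelle in which the enzymes Tyr, Tyrp1 and Dct make melanin on fibrils of Pmel. Cultured tumour cells also adjust their transcription to their surroundings: low oxygen stabilises Hif1a, whose targets include glucose transport and glycolysis, and shortage of amino acids or stress in the endoplasmic reticulum raises translation of Atf4, which acts on amino acid synthesis, transport and tRNA charging.

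The melanocyte identity of both controls was plain in their most abundant transcripts. Pmel, the fibril protein, stood at 3014 FPKM (2996 to 3031) in the expression vector control and 2993 (2976 to 3010) in the knockdown vector control, so the intervals overlapped. Tyrp1 stood at 2172 and 2885 FPKM, 1.33-fold (1.32 to 1.34) higher in the knockdown vector control. Gpnmb, a glycoprotein of melanosomes and lysosomes, stood at 2711 and 1573 FPKM, 1.72-fold (1.71 to 1.73) higher in the expression vector control. All 3 were among the 20 most abundant nuclear protein-coding genes, with Mlana, another melanosome protein, at 947 and 1146 FPKM.

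The rest of those 20 genes included factors of translation, ferritin chains and glycolytic enzymes, besides the chaperone Hsp90ab1, the galectin Lgals1, the cytokine Mif and the tubulin Tuba1b. Eef1a1, a translation elongation factor, led them at 4040 FPKM in both controls, with overlapping intervals. The ferritin chains Fth1 (2972 and 3508 FPKM) and Ftl1 (2151 and 3135 FPKM) were higher in the knockdown vector control. The glycolytic enzymes Eno1 (2057 and 1205 FPKM), Aldoa (1806 and 1011), Pgk1 (1607 and 811) and Pkm (1522 and 769) were all higher in the expression vector control, and Pgk1 and Pkm had the widest gaps among the 20.

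**Figure D1:**
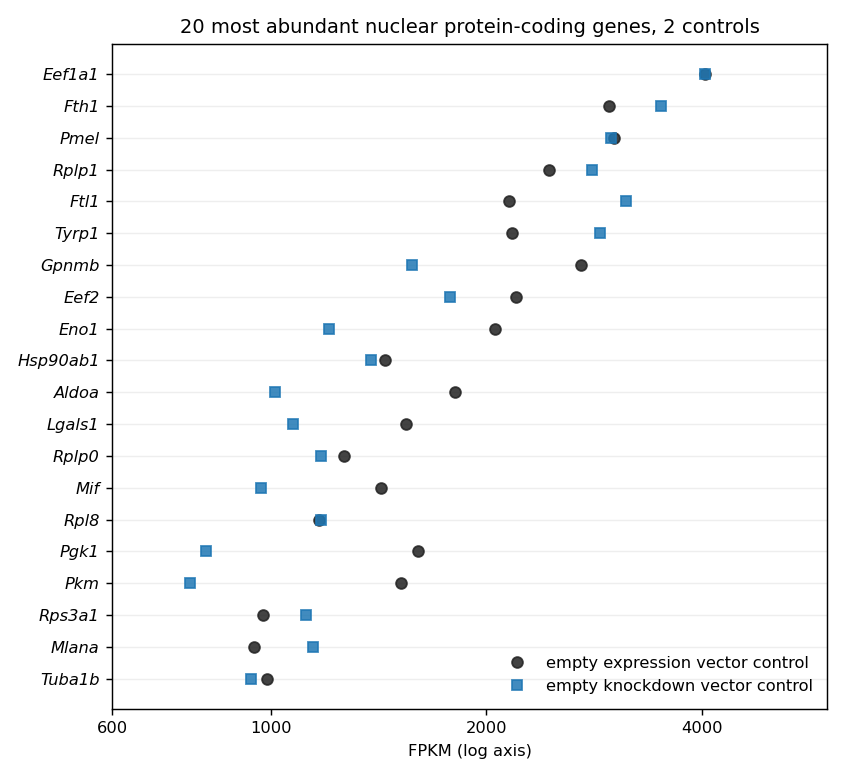
The 20 nuclear protein-coding genes with the highest geometric mean FPKM over the 2 controls (horizontal log axis, FPKM; black circles, expression vector control; blue squares, knockdown vector control; 1 library each). Eef1a1, Pmel and Rpl8 coincide, while Eno1, Aldoa, Pgk1 and Pkm lie to the right in the expression vector control.

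The melanosome list of 30 genes had 29 members compared, of which 16 were higher and 13 lower in the knockdown vector control, and the list had a median log2 ratio of 0.04. Here the log2 ratio subtracts log2(FPKM + 1) in the expression vector control from the same value in the knockdown vector control, so it is above 0 for a gene higher in the latter, and its median over all 11142 genes was -0.01. Tyr, the rate-limiting enzyme of melanin synthesis, stood at 76.2 FPKM (74.7 to 77.8) and 76.9 FPKM (75.3 to 78.5). Dct, which acts after Tyr, stood at 1067 and 835 FPKM. Of the 29, 1 was at least 2-fold apart (3.45%, against 3.08% of all genes), and 48.5% of all genes were higher in the knockdown vector control. That member was Rab32, a GTPase of melanosome transport, at 10.3 FPKM (9.37 to 11.4) against 23.0 (21.6 to 24.6), higher in the knockdown vector control. The list took 4.31% of reads in the expression vector control and 3.89% in the knockdown vector control.

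The promoters of Tyr and Dct are shown because these 2 enzyme genes hold the M-box, the element that Mitf is known to bind. Sequences throughout are from RefSeq (GRCm38.p6), run 5′ to 3′ on the strand of the gene, and hold the bases upstream of the start site that the deposited table also places outside the gene. Capitals mark matches to the stated motif on either strand, and positions are those of the first base of a match counted from the start site. For TCATGTG, 6 of 29 promoters of the melanosome list (20.7%) had a match in 250 upstream bases (Dct, Hps1, Slc24a5, Trpm1, Tyr and Tyrp1), against 3.25% of the 32851 promoters in the table and 1.71% of promoters of the protein-coding genes compared. The 29 promoters of the list belonged to 24 of its genes. The match lay at -22 in Tyr (chr7:87493513-87493762, minus strand) and at -232 and -151 in Dct (chr14:118052247-118052496, minus strand).
Tyr: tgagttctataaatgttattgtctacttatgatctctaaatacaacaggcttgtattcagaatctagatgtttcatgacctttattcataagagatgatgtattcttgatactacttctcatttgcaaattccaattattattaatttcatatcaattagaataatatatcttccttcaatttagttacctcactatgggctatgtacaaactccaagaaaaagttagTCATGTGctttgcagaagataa
Dct: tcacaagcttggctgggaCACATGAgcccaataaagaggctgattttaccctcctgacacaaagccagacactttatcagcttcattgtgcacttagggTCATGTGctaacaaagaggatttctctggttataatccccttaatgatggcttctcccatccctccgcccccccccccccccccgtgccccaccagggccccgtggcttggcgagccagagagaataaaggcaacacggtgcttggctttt

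Among 22 melanocyte regulators and receptors that could be compared, 9 were higher and 13 lower in the knockdown vector control (median -0.13), and 1 was 2-fold apart (4.55%, against 3.08% of all genes). Over all genes 48.5% were higher and 51.5% lower. Sox10 stood at 278 FPKM (274 to 283) and 244 (240 to 249). Mitf was higher in the knockdown vector control, 41.6 FPKM (40.4 to 42.8) against 28.7 (27.7 to 29.8), a ratio of 1.45 (1.38 to 1.52). Mc1r, the melanocortin receptor, was lower there, 40.8 against 59.9 FPKM. Kit, the receptor of stem cell factor, was under 1 FPKM in both (0.550 and 0.255), and Ednrb, the endothelin receptor, had 0 reads in both. The member 2-fold apart was Etv5, an ETS transcription factor, at 0.463 FPKM (0.326 to 0.656) and 3.37 (2.96 to 3.83), from 31 and 231 reads, with 19.5, 5.58 and 0.224 in the Myod1, Pparg and Setdb1 knockdown libraries. It passed the limit of 1 FPKM only through the control where it is high. Its relative Etv4 stood at 0.0986 and 1.04 FPKM, from 5 and 54 reads, and Spry2, an inhibitor of growth factor signalling, at 6.10 and 6.25 FPKM.

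Of 13 cell-cycle and growth regulators compared, 10 were higher and 3 lower in the knockdown vector control, and none was 2-fold apart, against 3.08% of all genes. The highest ratio was that of Ccnd1, cyclin D1, at 36.3 and 62.4 FPKM, 1.72 (1.64 to 1.80). Trp53 stood at 52.1 and 62.3 FPKM, Cdkn1a at 119 in both and Cdk4 at 106 and 124. The tumour suppressor genes Cdkn2a and Cdkn2b had 0 reads in both controls, which at 3 reads allows levels up to 0.157 and 0.132 FPKM in the expression vector control. The 44 S phase genes (31 higher, 13 lower in the knockdown vector control; median 0.14) and the 52 G2/M genes (23 higher, 29 lower; median -0.05) held 1 member at least 2-fold apart; over all genes 48.5% were higher and 51.5% lower. That gene was Mki67, the proliferation antigen, at 33.5 FPKM (32.6 to 34.4) in the expression vector control and 12.6 (12.0 to 13.1) in the knockdown vector control.

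Markers of other cell types were examined for the makeup of the cultures; in bulk RNA, fewer cells of a type and less RNA per cell cannot be told apart. The keratinocyte and epithelial list summed to 0.0937 and 0.244 FPKM, with Epcam and Krt14 at 0 reads in both. The endothelial list summed to 0.0393 and 0.0192 FPKM, with Cdh5 at 0 reads in both, and the leukocyte list to 0.106 and 0 FPKM. The fibroblast list summed to 11.1 and 6.12 FPKM, most of it Pdgfrb (9.90 and 4.95), while Dcn, Lum, Col3a1 and Thy1 had 0 reads in both. Neural crest derivatives share genes with melanocytes, and 5 of 7 Schwann cell markers passed the limit, led by S100b at 44.1 and 36.1 FPKM. The neuron list summed to 202 and 119.9 FPKM, of which Tubb3, a tubulin, made up 202 and 119 FPKM. The muscle list summed to 6.59 and 5.20 FPKM, mostly Des (6.20 and 4.75), the adipocyte list to 0.0697 and 0.0433 and the erythroid list to 0.176 and 0.

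Across the 11142 genes the 2 controls lay close together. The Pearson correlation of log2(FPKM + 1) across genes, which are not independent replicates, was 0.97, and the SD of the log2 ratio was 0.42. Of these genes, 10316 reached 1 FPKM in both controls, 437 only in the expression vector control and 389 only in the knockdown vector control. A total of 6282 genes (56.4%) lay within 1.2-fold of each other and 9876 (88.6%) within 1.5-fold.

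A difference of at least 1 in the log2 ratio, which is 2-fold on that scale, separated 343 genes, 3.08% of those compared. Of these, 158 (1.42%) were higher and 185 (1.66%) lower in the knockdown vector control, but the balance depended on the class and read number of the gene. It also depended on the scaling, and dividing each column by its sum gave 172 higher and 167 lower. Among the 9901 protein-coding genes, 151 (1.53%) were 2-fold apart, 22 (0.222%) higher and 129 (1.3%) lower. Among the 10274 genes with at least 50 reads in the higher library, 179 (1.74%) were 2-fold apart, 49 (0.477%) higher and 130 (1.27%) lower. Of the 158 higher genes, 109 had fewer than 50 reads in either control, and of the 49 with more, 20 were protein-coding, 21 processed pseudogenes and 8 of other classes. Of the 130 lower genes, 120 were protein-coding and 7 processed pseudogenes. Requiring the 2 Wilson intervals to lie apart as well left 220 genes (1.97%), 73 higher and 147 lower.

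**Figure D2:**
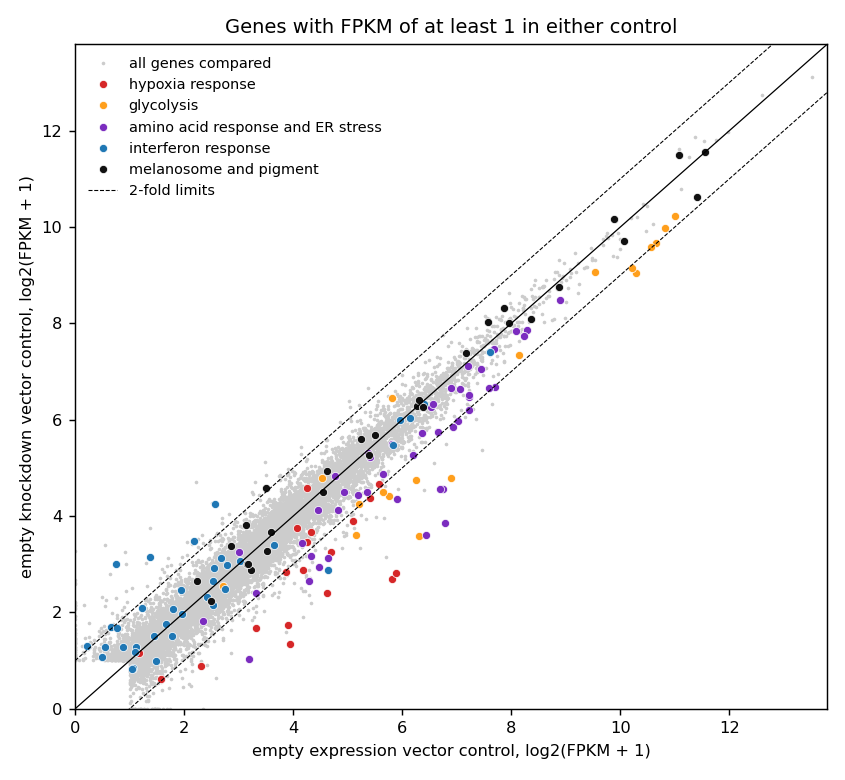
Level of each of the 11142 genes in the expression vector control (horizontal axis) and the knockdown vector control (vertical axis), both as log2(FPKM + 1), with 5 lists in colour and dashed lines at 2-fold. Most members of the hypoxia, glycolysis and amino acid lists lie below the diagonal, and pigment genes lie along it.

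The 120 protein-coding genes that were lower in the knockdown vector control with at least 50 reads were read against the lists. Of these genes, 34 belonged to the hypoxia, glycolysis or amino acid and endoplasmic reticulum (ER) stress lists, 9 to other lists and 77 to none. Of the 20 higher genes, 6 belonged to the interferon list, 6 to other lists and 8 to none. The hypoxia, glycolysis and amino acid lists held 19, 18 and 45 of the 11142 genes compared, and the interferon list 37. All lists were chosen with earlier results of these data known, so these counts are not independent evidence of a direction.

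Genes that respond to low oxygen had the lowest median log2 ratio of the lists compared. In the hypoxia list of 19 genes, 18 were lower in the knockdown vector control and 12 of them at least 2-fold, and the list had a median log2 ratio of -1.20; over all genes compared, 51.5% were lower by any amount and 1.66% at least 2-fold. The intervals lay apart in 17 of the 18 lower genes, and Rsbn1, at 1.25 and 1.24 FPKM, was the exception. At these read numbers that was common: 50.2% of all genes compared had intervals apart at some fold, 27.1% with the lower value and 23.1% with the higher value in the knockdown vector control. Hif1a itself, the oxygen-regulated transcription factor whose activity is set mainly at the protein level, was the 1 member that was higher, 22.9 FPKM (21.9 to 23.8) against 18.1 (17.2 to 18.9).

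Bnip3, a mitophagy receptor, had the lowest log2 ratio of any named gene with at least 50 reads, at -3.11. It stood at 55.3 FPKM (52.9 to 57.7) in the expression vector control and 5.52 (4.82 to 6.32) in the knockdown vector control, a 10.0-fold difference (8.68 to 11.6), with 39.6 after Myod1 expression, 16.8 after Pparg expression and 7.28 after Setdb1 knockdown. Both libraries with the knockdown vector at day 7 were below all 3 libraries with the expression vector at day 8, an order seen in 9 of the 19 members and in 7.11% of all genes. P4ha2, for example, did not have it, with 13.6 FPKM after Setdb1 knockdown against 9.43 with Pparg. Car9, a carbonic anhydrase of the cell surface, had that order, with 14.3, 4.86 and 4.62 FPKM in the control, Myod1 and Pparg libraries of day 8, and 1.53 and 1.88 in the control and Setdb1 knockdown libraries of day 7. Vegfa, the angiogenic growth factor, stood at 23.6, 18.3 and 9.24 FPKM in the same day 8 libraries and at 4.33 and 6.41 FPKM in those of day 7.

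Pdk1, the kinase that keeps pyruvate out of the mitochondrion, stood at 14.0 FPKM (13.4 to 14.7) and 2.34 (2.10 to 2.62), a 5.99-fold difference (5.30 to 6.79). Selenbp1, a selenium-binding protein with a near-identical paralog that makes its count uncertain, stood at 57.8 and 6.08 FPKM, 9.50-fold (8.29 to 10.9) apart. Adm, the peptide adrenomedullin, was 4.13-fold (3.09 to 5.59) and Egln3, an oxygen-sensing prolyl hydroxylase, 4.66-fold (3.26 to 6.81) higher in the expression vector control, and Egln3 passed the limit of 1 FPKM only there. The collagen prolyl hydroxylases P4ha1 (41.7 and 19.8 FPKM) and P4ha2 (17.1 and 6.39 FPKM) were also at least 2-fold apart.

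Across the 5 libraries, 14 of the 19 hypoxia genes were highest in the expression vector control and 8 were lowest in the knockdown vector control, against 18.1% and 17.9% of all genes compared. The mean of log2(FPKM + 1) over the list was 4.12 in the expression vector control, 3.62 with Myod1, 3.21 with Pparg, 2.79 with Setdb1 knockdown and 2.78 in the knockdown vector control. The 2 controls thus lay at opposite ends of the 5 libraries for this list.

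Glycolysis, the conversion of glucose to pyruvate and lactate, followed. Of 18 members, 16 were lower in the knockdown vector control, 8 of them at least 2-fold (over all genes 51.5% and 1.66%), and the median log2 ratio was -0.98. The list took 4.03% of all reads in the expression vector control and 2.25% in the knockdown vector control, and 3.20%, 2.98% and 1.27% in the Myod1, Pparg and Setdb1 knockdown libraries.

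At the entry of the pathway, the glucose transporter Slc2a1 stood at 53.2 FPKM (51.3 to 55.1) and 20.5 (19.4 to 21.7). The hexokinases Hk2 (75.5 and 26.1 FPKM) and Hk1 (49.1 and 21.6) and the phosphofructokinases Pfkl (117 and 26.6), Pfkp (34.8 and 11.1) and Pfkm (35.7 and 18.0) were higher in the expression vector control. Pfkl, the liver-type subunit, had the widest gap of these 5 genes, 4.40-fold (4.23 to 4.59).

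In the lower part of the pathway, Tpi1, triose phosphate isomerase, stood at 1243 and 529 FPKM, 2.35-fold (2.31 to 2.39) apart. Ldha, which turns pyruvate into lactate, stood at 1191 and 565 FPKM, 2.11-fold (2.08 to 2.14) apart. At the exit, Slc16a3, the lactate exporter, stood at 78.7 FPKM (76.9 to 80.6) and 11.1 (10.4 to 11.8), 7.11-fold (6.65 to 7.61) apart. Its relative Slc16a1, which also imports monocarboxylates, went the other way at 22.0 and 26.6 FPKM. Gapdh was the other exception, at 55.4 and 86.1 FPKM; it has many processed pseudogenes, and how reads shared among them were counted is not given in the sources used here, so its level is uncertain.

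Upstream sequences of Bnip3 and Hk2 are shown as examples of genes of these 2 lists that hold ACGTG, the core of the hypoxia response element, a motif chosen after the values were seen. It occurred in 12 of 22 promoters of the hypoxia list (54.5%) and in 14 of 29 of the glycolysis list (48.3%), against 22.7% of promoters of the protein-coding genes compared and 16.6% of all promoters in the table. Promoters of the protein-coding genes at least 2-fold lower in the knockdown vector control held it in 43 of 141 cases (30.5%), and those at least 2-fold higher in 3 of 17 (17.6%). Lists with medians nearer 0 held it too, the melanosome list in 10 of 29 promoters (34.5%) and the immediate early list in 11 of 33 (33.3%). In Bnip3 (chr7:138909520-138909756, minus strand) the matches at -108 and -107 overlap on opposite strands, and in Hk2 (chr6:82774455-82774704, minus strand) they start at -226 and -52. ACGTG is short, and its matches can be part of other elements.
Bnip3: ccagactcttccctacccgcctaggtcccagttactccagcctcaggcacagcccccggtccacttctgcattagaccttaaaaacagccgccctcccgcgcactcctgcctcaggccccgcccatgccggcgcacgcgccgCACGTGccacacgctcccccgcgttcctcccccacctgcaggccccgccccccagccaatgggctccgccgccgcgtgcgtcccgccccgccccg
Hk2: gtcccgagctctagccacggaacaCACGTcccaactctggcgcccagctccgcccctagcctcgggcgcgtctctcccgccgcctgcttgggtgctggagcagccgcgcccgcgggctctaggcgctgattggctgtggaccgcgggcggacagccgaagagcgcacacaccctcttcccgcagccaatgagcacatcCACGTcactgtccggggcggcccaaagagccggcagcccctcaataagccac

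Genes of the amino acid response and of ER stress made up the third set. Of 45 members compared, 43 were lower in the knockdown vector control, 14 of them at least 2-fold, against 51.5% and 1.66% of all genes, and the list had a median log2 ratio of -0.72. The intervals lay apart in 42 of the 43 lower members, and over all genes 27.1% were lower with intervals apart. The 2 higher members, Edem1 (26.2 and 27.6 FPKM) and Dnajb9 (6.99 and 8.54 FPKM), act in ER protein folding and degradation, and their intervals overlapped.

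Atf4, the transcription factor at the head of this response, stood at 207 FPKM (202 to 211) in the expression vector control and 101 (97.8 to 104) in the knockdown vector control, 2.05-fold (1.97 to 2.13) apart. The other 3 libraries had 150 (Myod1), 114 (Pparg) and 233 FPKM (Setdb1 knockdown), so the knockdown vector control was the lowest of the 5. Its partner Ddit3 (CHOP), a factor of prolonged ER stress, stood at 58.9 and 19.4 FPKM, with 18.7, 42.8 and 87.0 in the Myod1, Pparg and Setdb1 knockdown libraries. Atf3, a stress factor of the immediate early list, stood at 19.2 FPKM (17.8 to 20.7) and 3.58 (3.01 to 4.26), with 15.3, 35.4 and 51.4 in the same 3 libraries.

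The lowest log2 ratios of the list were those of Trib3, Chac1, Ddit4, Nupr1 and Ero1l. Trib3, a pseudokinase induced under stress, stood at 109 FPKM (105 to 112) and 13.5 (12.3 to 14.7), 8.07-fold (7.34 to 8.90) apart. Chac1, which degrades glutathione, stood at 85.2 FPKM (81.8 to 88.8) and 11.2 (10.0 to 12.5), 7.60-fold (6.74 to 8.59) apart. Ddit4, an inhibitor of mTORC1 that also responds to low oxygen, stood at 107 and 22.7 FPKM. Nupr1, a small stress-induced chromatin protein, stood at 8.08 and 1.05 FPKM, 7.72-fold (5.63 to 10.8) apart. Ero1l, an ER oxidase likewise known to respond to low oxygen, stood at 102 and 22.5 FPKM.

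The Setdb1 knockdown library did not share the low level of the other day 7 library in Trib3 (88.0 FPKM), Chac1 (32.4) and Ddit4 (79.3). Ero1l differed from these 3, since it lay between 17.0 and 25.8 FPKM in the 4 libraries other than the expression vector control. Over the whole list the mean of log2(FPKM + 1) was 6.02 in the expression vector control, 5.59 with Setdb1 knockdown, 5.31 with Pparg, and 5.17 in both the knockdown vector control and the Myod1 library. Of the 45 genes, 28 were highest of the 5 libraries in the expression vector control and 13 lowest in the knockdown vector control, against 18.1% and 17.9% of all genes.

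Other members of the list act in amino acid supply. Asns, asparagine synthetase, stood at 128 and 61.9 FPKM, and Pck2, the mitochondrial phosphoenolpyruvate carboxykinase, at 23.8 and 7.75 FPKM. The tRNA synthetases Aars (120 and 56.4 FPKM) and Sars (148 and 73.1 FPKM) were at least 2-fold apart, and Nars, Tars, Eprs, Gars and Wars lay between -0.76 and -0.24 in log2 ratio. The cationic amino acid transporter Slc7a1 stood at 49.4 and 28.5 FPKM. Among ER chaperones, Hspa5 (BiP) stood at 272 and 229 FPKM, Calr at 473 and 357 and Canx at 146 and 139, while Hsp90b1, at 148 and 90.2, was near the list median with a log2 ratio of -0.71.

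Genes outside the lists included relatives of these sets, picked here among the lower genes after their values were seen, so that their direction was set by the choice. The neutral amino acid transporter Slc1a4 stood at 36.4 and 9.09 FPKM, the alanine aminotransferase Gpt2 at 17.2 and 4.45, and the tRNA synthetase Cars at 39.6 and 14.3. The aldolase Aldoc stood at 17.9 and 5.83 FPKM, the adenylate kinase Ak4 at 17.6 and 4.45, and the glycogen synthase Gys1 at 45.1 and 14.8. Their log2 ratios, in this order, were -1.89, -1.74, -1.41, -1.47, -1.77 and -1.55.

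The promoters of Chac1 and Pck2 are shown because they hold the amino acid response element TGATGNAA, the kind of site that Atf4 is known to bind with a C/EBP partner. It occurred in 9 of 42 promoters of the list (21.4%; Aars, Asns, Chac1, Gars, Herpud1, Nupr1, Pck2, Slc7a11 and Tars), against 1.86% of promoters of the protein-coding genes compared and 3.45% of all promoters. Promoters of protein-coding genes at least 2-fold lower in the knockdown vector control held it in 8 of 141 cases (5.67%), and none of the 17 promoters of those at least 2-fold higher did. The match starts at -193 in Chac1 (chr2:119350992-119351228, plus strand) and at -103 in Pck2 (chr14:55540016-55540265, plus strand), each on the opposite strand.
Chac1: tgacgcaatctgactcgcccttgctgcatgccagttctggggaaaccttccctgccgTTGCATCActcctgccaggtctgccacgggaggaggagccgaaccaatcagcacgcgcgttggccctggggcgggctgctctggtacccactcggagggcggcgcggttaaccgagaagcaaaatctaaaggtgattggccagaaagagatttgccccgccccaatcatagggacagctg
Pck2: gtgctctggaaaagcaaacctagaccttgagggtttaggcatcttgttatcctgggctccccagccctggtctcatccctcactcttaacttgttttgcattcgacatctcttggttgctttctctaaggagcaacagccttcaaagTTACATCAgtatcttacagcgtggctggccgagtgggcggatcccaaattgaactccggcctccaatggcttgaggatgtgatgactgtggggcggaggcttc

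**Figure D3:**
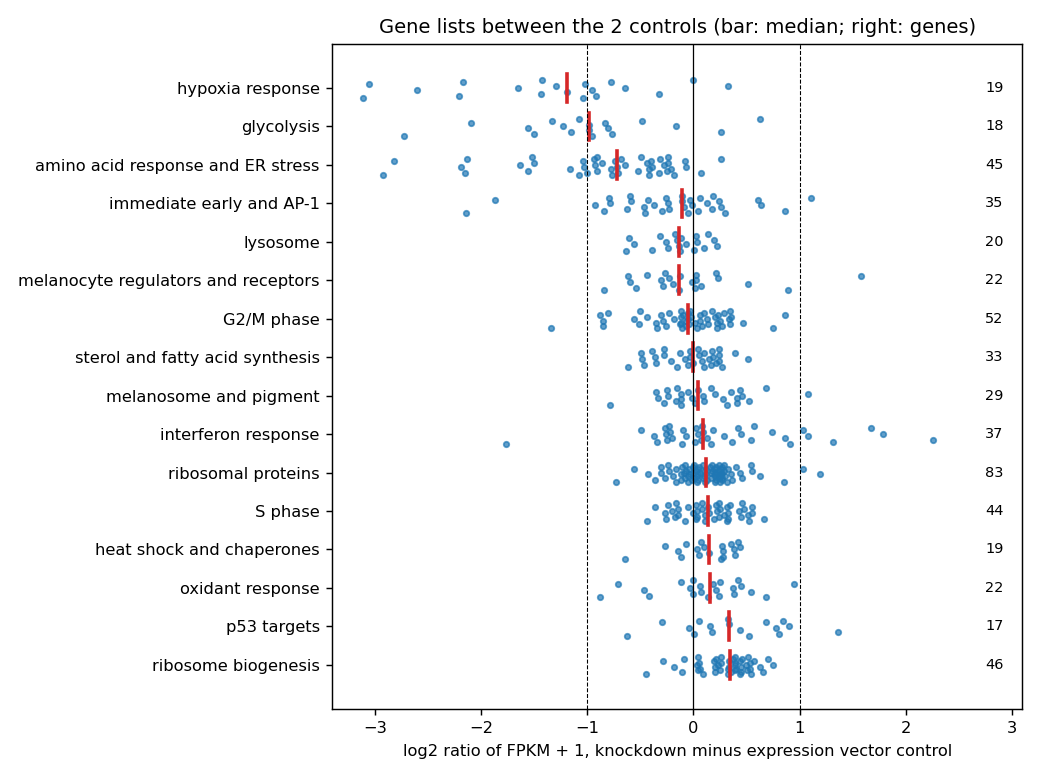
Log2 ratio of each member of 16 gene lists (blue points; knockdown vector minus expression vector control; red bars, list medians; numbers at the right, genes compared; dashed lines, 2-fold). The hypoxia, glycolysis and amino acid lists have medians of -1.20, -0.98 and -0.72, and the ribosome biogenesis and p53 target lists have the highest, 0.35 and 0.34.

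Interferon-stimulated genes were the list with the most members at least 2-fold higher in the knockdown vector control. Of 37 members compared, 24 were higher and 13 lower in the knockdown vector control, 6 of them at least 2-fold higher and 1 lower, and the list had a median log2 ratio of 0.09; over all genes compared, 48.5% were higher by any amount and 1.42% at least 2-fold. The intervals lay apart in 15 higher and 6 lower members and overlapped in 16, and over all genes 50.2% had intervals apart. The 6 members at least 2-fold higher were Ifit1, Ifit3, Isg15, Cxcl10, Oasl1 and Dhx58, which act in the recognition of viral RNA, in the antiviral state or as a chemokine. Of these, Ifit1, Oasl1 and Dhx58 passed the limit of 1 FPKM only through the knockdown vector control, where they are high. Of the 27 members at 1 FPKM or more in both controls, 3 were at least 2-fold higher and 1 lower, against 0.523% and 1.19% of the 10316 genes at that level.

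Ifit1, which binds viral RNA ends, stood at 0.691 FPKM (0.484 to 0.987) in the expression vector control and 7.07 (6.33 to 7.90) in the knockdown vector control, a ratio of 10.2 (7.02 to 15.4). Isg15, a ubiquitin-like modifier, stood at 4.94 FPKM (3.85 to 6.34) and 18.0 (15.8 to 20.4), a ratio of 3.64 (2.73 to 4.91). Ifit3 stood at 1.58 FPKM (1.18 to 2.11) and 7.92 (6.96 to 9.01), and the near copy Ifit3b makes its count uncertain. The chemokines Cxcl10 (3.51 and 10.2 FPKM) and Ccl5 (1.59 and 12.4 FPKM, of the cytokine list) were also higher in the knockdown vector control.

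In the remaining libraries, which also differ in transgene or hairpin, Ifit1 stood at 0.575 FPKM with Myod1, 10.9 with Pparg and 4.68 with Setdb1 knockdown. Isg15 had 7.66, 40.1 and 47.5 FPKM in the same 3 libraries. Other members were close in the controls: Bst2 stood at 61.6 and 62.7 FPKM, and Ifitm3 at 83.5 and 79.4. H2-K1, a major histocompatibility class I chain with close paralogs that make its count uncertain, was the member at least 2-fold lower in the knockdown vector control, at 23.9 against 6.33 FPKM.

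The promoters of Ifit1 and Isg15 are shown because they hold several copies of the interferon-stimulated response element, searched as GAAA, any 2 bases and GAAA again. It occurred in 12 of 37 promoters of the interferon list (32.4%), which belonged to 30 of its genes. It also occurred in 4 of 17 promoters of all protein-coding genes at least 2-fold higher in the knockdown vector control (23.5%, in Cxcl10, Ifit1, Ifit3 and Isg15). The shares were 2.34% of promoters of the protein-coding genes compared and 2.98% of all promoters. The matches start at -104 and -85 in Ifit1 (chr19:34640639-34640870, plus strand) and at -78, -72 and -66, overlapping, in Isg15 (chr4:156200819-156201068, minus strand).
Ifit1: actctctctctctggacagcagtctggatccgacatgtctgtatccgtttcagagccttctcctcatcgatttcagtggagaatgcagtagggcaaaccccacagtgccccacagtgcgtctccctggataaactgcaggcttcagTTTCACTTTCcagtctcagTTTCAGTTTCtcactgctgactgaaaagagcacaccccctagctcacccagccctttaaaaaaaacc
Isg15: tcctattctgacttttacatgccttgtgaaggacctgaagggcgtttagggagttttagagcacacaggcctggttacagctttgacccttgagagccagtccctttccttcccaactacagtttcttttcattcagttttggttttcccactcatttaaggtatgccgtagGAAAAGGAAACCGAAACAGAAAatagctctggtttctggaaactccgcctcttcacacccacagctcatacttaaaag

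Of 17 targets of p53 compared, 14 were higher in the knockdown vector control, and the list had a median log2 ratio of 0.34; over all genes 48.5% were higher. The intervals lay apart in 11 of the 14, and over all genes 23.1% were higher with intervals apart. Of the list, 1 gene was at least 2-fold higher, against 1.42% of all genes. That gene was Ccng1, cyclin G1, at 31.5 FPKM (30.1 to 33.0) and 82.9 (80.6 to 85.2). Ccng1 stood at 91.0, 82.8 and 66.9 FPKM in the other 3 libraries, so the expression vector control was the low one. Mdm2, the ubiquitin ligase of p53, stood at 14.1 and 25.4 FPKM, with 20.8, 19.6 and 24.0 in the others. Of the 17 genes, 12 were lowest of the 5 libraries in the expression vector control, against 12.8% of all genes, while Cdkn1a, the best known target, was at 119 FPKM in both controls.

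Ribosome biogenesis genes, which make and process ribosomal RNA, were higher in the knockdown vector control by small steps. Of 46, 41 were higher, against 48.5% of all genes, and none was 2-fold apart. The list had a median log2 ratio of 0.35. The intervals lay apart in 36 of the 41, and over all genes 23.1% were higher with intervals apart. Nop2, a ribosomal RNA methyltransferase, stood at 83.7 and 125 FPKM, a ratio of 1.49 (1.43 to 1.55). Dimt1, another methyltransferase, had the largest log2 ratio of the list, 0.75, at 2.56 and 4.98 FPKM. Of the 46, 32 were highest of the 5 libraries in the knockdown vector control, against 20.4% of all genes. Myc, a regulator of this process, stood at 14.6 FPKM (13.5 to 15.7) and 23.3 (21.9 to 24.7), with 8.89 to 10.4 in the other 3 libraries.

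**Figure D4:**
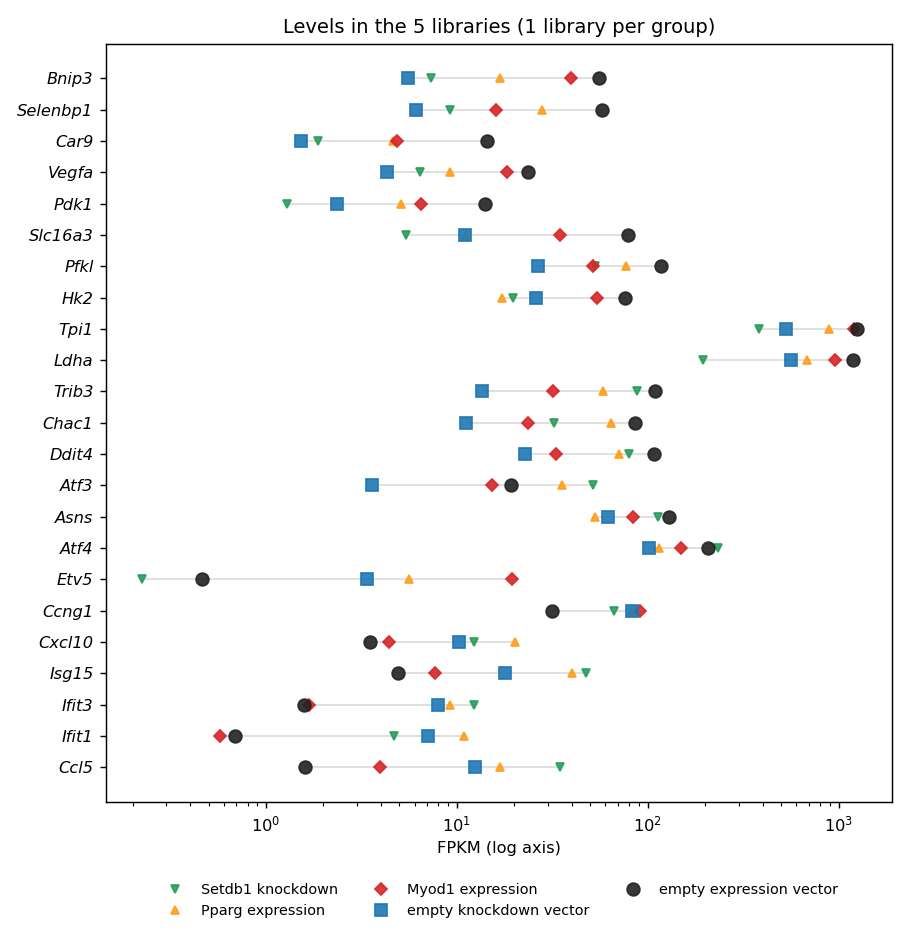
FPKM of 23 genes in the 5 libraries (horizontal log axis; symbols as in the legend; 1 library per group). Hypoxia and glycolysis genes from Bnip3 to Ldha are highest in the expression vector control, and Etv5 to Ccl5 are lower in the expression vector control than in the knockdown vector control.

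Among named genes with at least 50 reads in the higher library, the largest log2 ratio was that of Sumo2, a small ubiquitin-like modifier, at 2.49. It stood at 3.67 FPKM (3.03 to 4.44) in the expression vector control and 25.3 (23.5 to 27.2) in the knockdown vector control, with 5.46, 17.8 and 6.63 in the Myod1, Pparg and Setdb1 knockdown libraries. Sumo2 has processed pseudogene copies, so its count is uncertain. Of the 15 highest ratios among named genes with at least 50 reads, others were those of processed pseudogenes such as Gm14269 (1.64) and Gm6311 (1.41), and of the small nucleolar RNA host gene Snhg15 (1.27). Id2, an inhibitor of basic helix-loop-helix factors, stood at 12.5 and 28.0 FPKM.

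Most of the remaining lists had medians near 0. The immediate early list of 35 genes had a median of -0.11, with Atf3 and Ier3 (83.9 and 22.3 FPKM) at least 2-fold lower and Id2 higher in the knockdown vector control. These made up 8.57% of the list, against 3.08% of all genes. In the same list Fosl2 stood at 4.72 and 2.02 FPKM, the phosphatase Dusp6 at 15.3 (14.2 to 16.4) and 28.6 (27.2 to 30.1), Fos at 2.03 and 2.01 and Egr1 at 1.47 and 1.96. Sterol and fatty acid synthesis (33 genes; median 0.00), heat shock genes and chaperones (19; 0.15), oxidant response genes (22; 0.16) and lysosomal genes (20; -0.13) had none that was 2-fold apart on the log2(FPKM + 1) scale. Of 83 ribosomal proteins, 57 were higher and 26 lower (median 0.12), with Rpl21 and Rps3a3, genes of families with many copies, at least 2-fold higher; over all genes 48.5% were higher and 1.42% at least 2-fold. In the matrix list of 23 genes, 1 was 2-fold apart (4.35%, against 3.08% of all genes). That gene was Fn1, fibronectin, at 18.4 and 8.20 FPKM. The cytokine list had 8 genes compared and a median of -0.56, with Ccl5 at least 2-fold higher and Cxcl1 and Tnfaip2 at least 2-fold lower in the knockdown vector control (37.5% 2-fold apart, against 3.08% of all genes). Tnfaip2, a gene induced by tumour necrosis factor, stood at 26.2 and 10.6 FPKM. Cxcl1, a chemokine, had 56 reads (1.83 FPKM) in the expression vector control and 0 in the knockdown vector control, where 3 reads would be 0.0957 FPKM, so it passed the limit of 1 FPKM only through the former.

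Mitochondrially encoded genes took 2.09% and 2.44% of reads. Of 13 mitochondrial mRNAs, 8 were higher and 5 lower in the knockdown vector control, against 48.5% and 51.5% of all genes. mt-Nd4l, at 51.1 and 7.85 FPKM, and mt-Atp8, at 7.50 and 2.64, were at least 2-fold lower (1.66% of all genes), but each overlaps its neighbour on the mitochondrial genome and its count is uncertain. Their neighbours mt-Nd4 (817 and 786 FPKM) and mt-Atp6 (165 and 143) were within 1.2-fold.

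Technical features moved with the log2 ratio. In the quintile of genes with the fewest reads (1 to 174 in the higher library) 8.88% were 2-fold apart, against 1.21% to 1.98% in the other quintiles. Transcript GC content had a Spearman rho of -0.33 with the log2 ratio across 9893 protein-coding genes, as a description. The median log2 ratio went from 0.11 in the quintile with the lowest GC content to -0.18 in the quintile with the highest. Median GC content was 50.7% in the hypoxia list, 53.1% in the glycolysis list, 50.3% in the amino acid list and 47.5% in the interferon list. With the median of 20 GC bins subtracted, 11, 8 and 11 members of the first 3 lists were at least 2-fold lower, and 11, 8 and 10 of these had been so before, when the counts were 12, 8 and 14. In the interferon list the same 6 members were at least 2-fold higher. At that setting 169 of 11081 genes were at least 2-fold higher and 157 lower. The median of the immediate early list went from -0.11 to 0.03, and its lower members from 23 to 17. Over all genes 51.5% were lower before the subtraction, and the median after it was 0. The part of GC content and read number in single genes was not tested.

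**Figure D5:**
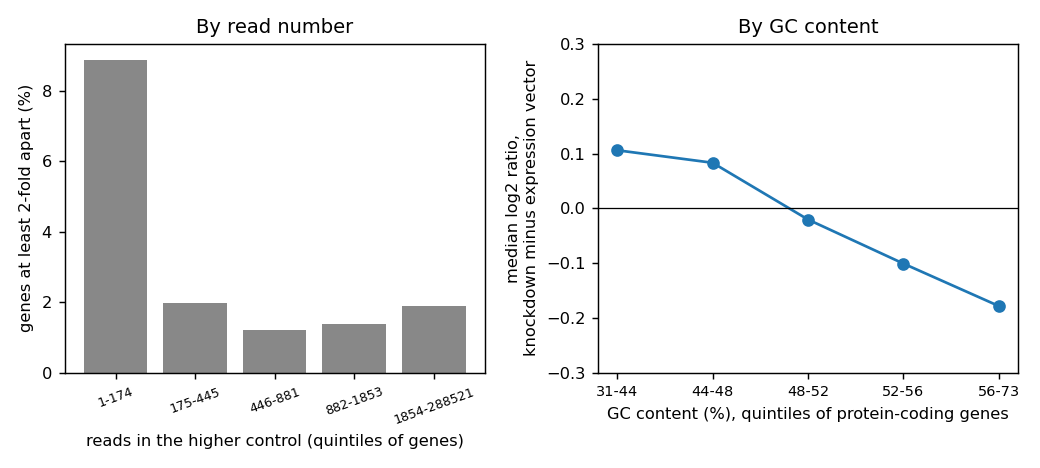
Left, percentage of genes at least 2-fold apart in each quintile of genes by reads in the higher control; right, median log2 ratio (knockdown vector minus expression vector control) in each quintile of protein-coding genes by GC content of the transcript. The share is 8.88% in the quintile with the fewest reads, and the median goes from 0.11 to -0.18 as GC content increases.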

How the data were processed

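RNA of 5 libraries, 1 per group, was sequenced after preparation with a NEBNext kit, per the labels' protocols. The authors deposited 1 table of FPKM values per gene. The submitters' processing notes name CASAVA, HISAT2, featureCounts 1.5.0-p3 and the build GRCm38, with no role or order; strand setting, treatment of shared reads and the scaling behind FPKM are not given in the sources used here. Of 54495 identifiers shared with GENCODE M21 (GRCm38), 98.3% had the same position.

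FPKM multiplied by gene length was a whole multiple of 1 step per library for 100% of values (tolerance 0.01), which gave the reads behind each value. Controls were compared in Python 3.11.15 (numpy 2.4.6, pandas 2.3.3, scipy 1.17.1, matplotlib 3.10.9) as log2(FPKM + 1), a scale that understates the difference of low genes, over genes with FPKM of at least 1 in either control. With 1 library per group no test was run, and the calculation was tested on simulated data. Intervals are 95% Wilson (levels) and exact binomial (folds), treat fragments as independent and cover counting error only.

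The 35 gene lists, the genes compared and the limits were chosen with earlier results of these data known, so no list is independent evidence of a direction. Where a symbol had several rows, that with the highest summed FPKM in the controls was used. Named genes were the targeted genes, Pmel, Tyrp1 and Gpnmb, the 20 most abundant nuclear protein-coding genes, the 15 highest and 15 lowest log2 ratios with at least 50 reads, and in each list the members 2-fold apart, the 3 highest and 3 lowest, with all pigment genes and regulators at FPKM of at least 1; other genes were named after their values were seen. Promoters are 250 bases upstream of RefSeq start sites, and 7913 of 9900 symbols of protein-coding genes matched. Some genes had several promoters and others none, so a count of promoters is not a count of genes. Alternatives varied the pseudocount, scaling, low-value filter, fold limit, gene class and GC content.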

Additional observations from a re-analysis of the deposited data

How the results depend on the processing

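The counts of genes higher and lower in the knockdown vector control (158 and 185) depended on how low values were treated and on the fold limit. They were 293 and 374 with a pseudocount of 0.1, 255 and 369 with values under 3 reads set to 3 reads, 54 and 123 with FPKM of at least 1 in both controls, 544 and 722 at a 1.5-fold limit, and 18 and 18 at a 4-fold limit. They were 49 and 130 with at least 50 reads, 22 and 129 in protein-coding genes, 73 and 147 with Wilson intervals apart, and 79 and 151 with gene lengths of at least 200 bases, the last chosen after seeing the data; in these only the higher count moved by over 1.5 times. The share of higher genes among those 2-fold apart was 46.1%, against 27.4% with at least 50 reads and 14.6% in protein-coding genes. Dividing each column by its sum gave 172 and 167, scaling to the reads assigned to genes (chosen after seeing the data) 181 and 156, median centring 162 and 181, scaling to the 75th percentile 160 and 185, and subtracting GC bin medians 169 and 157, of which 285 were among the original 343. With a pseudocount of 0.1 the interferon list had 10 members at least 2-fold higher in place of 6. Over the scaling, pseudocount and GC alternatives, members at least 2-fold lower numbered 10 to 13 in the hypoxia list, 7 to 8 in the glycolysis list and 11 to 15 in the amino acid list. Of 71 named genes 2-fold apart, 66 were so after division by the column sum. The others were Atf4, Asns, Sars, P4ha1 and Mxi1, whose log2 ratios then lay between -0.99 and -0.96. No paired analysis was possible because each group has 1 library; leaving out a replicate was not possible for the same reason.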

Other observations

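Short RNAs made up a large part of the genes that were 2-fold higher in the knockdown vector control. Of 62 small nucleolar RNA genes compared, 30 were at least 2-fold higher and 7 lower, against 1.42% and 1.66% of all genes, with a median log2 ratio of 0.94, but their median was 4 reads in the higher library and none reached 50 reads. Of 52 microRNA genes, 24 were higher and 15 lower, on a median of 2.5 reads, and of 31 small nuclear RNA genes 11 were higher and 5 lower, on a median of 3 reads. The median log2 ratio by chromosome ranged from -0.06 on chromosome 19 to 0.08 on chromosome 13.

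Among replication-dependent histone genes, which lack a poly(A) tail, 11 of 70 could be compared. Hist1h1c, a linker histone, stood at 11.3 FPKM in the expression vector control and 19.0 in the knockdown vector control, and Hist1h2bc at 6.51 and 10.2. The members 2-fold apart made up 27.3% of the 11, against 3.08% of all genes, and had few reads. Hist1h2bg (15 and 0 reads) and Hist1h2af (7 and 0) were lower in the knockdown vector control, and Hist1h4f (1 and 9) was higher. All 3 passed the limit of 1 FPKM through 1 control only. Intervals overlapped in 7 of the 11, while 50.2% of all genes compared had intervals apart. Of 7 S100 calcium-binding proteins, 6 were lower in the knockdown vector control, against 51.5% of all genes, but intervals overlapped in 4 of the 7. The member at least 2-fold lower, as were 1.66% of all genes, was S100a6, at 17.7 FPKM (16.1 to 19.6) and 5.69 (4.79 to 6.75). Among oxidant response genes Gclm, a subunit of the enzyme that starts glutathione synthesis, stood at 5.30 and 11.2 FPKM, a ratio of 2.10 that came to 0.95 in log2(FPKM + 1), just under the 2-fold limit, and Hmox1, heme oxygenase, at 84.9 and 45.6.

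Other motifs were searched in the same 250 upstream bases. The AP-1 site TGANTCA occurred in 8 of 37 promoters of the interferon list (21.6%). It occurred in 10 of 141 promoters of protein-coding genes at least 2-fold lower in the knockdown vector control (7.09%) and 2 of 17 of those at least 2-fold higher (11.8%). The shares were 3.94% of promoters of the protein-coding genes compared and 6.75% of all promoters. The cyclic AMP response element occurred in 3 of the 141 (2.13%) and 1 of the 17 (5.88%), against 2.59% of promoters of the protein-coding genes compared. For the serum response element only a loose pattern was searched, with its outer C and G bases fixed and any base allowed between them. That pattern occurred in 118 of the 141 (83.7%) and 13 of the 17 (76.5%). Its shares were 81.3% of promoters of the protein-coding genes compared and 67.1% of all promoters. The pattern is too loose to show how many promoters hold the element.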
